A study of Mus musculus with 19 samples.

Results

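The 9 genes described here, S100a8, S100a9, Camp, Ngp, Ltf, Lcn2, Retnlg, Mpo and Elane, encode the abundant cytosolic and granule proteins of neutrophils and their precursors. They were taken by symbol from a table of 23846 genes in which they had been selected on their measured FPKM, since a single library of lineage-positive muscle cells held far more of them than any other. Their levels in the lineage-positive libraries are therefore given as a description, with no test against other groups. Of the 9 genes, 9 passed the filter on low values that left 14043 genes (at least 1 FPKM in at least 3 libraries). Elane passed it through the 4 lineage-positive libraries alone, and Mpo through these and 1 other.

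Cells of the hindlimb muscle of C57BL/6J mice were sorted, and poly(A) RNA was sequenced in 19 libraries of 5 groups. LinPos (4 libraries) was the lineage-positive fraction, which the labels call endothelial and blood-derived cells. LinNeg (4 libraries) was the lineage-negative fraction, and the labels do not name the proteins of the lineage gate. LinNegSca1Pos (3 libraries) and LinNegSca1Neg (4 libraries) were lineage-negative cells with and without the surface protein Sca1, and the labels call LinNegSca1Pos a mesenchymal progenitor fraction. Whole (4 libraries) was named an unsorted suspension of mononuclear cells in the sample titles and whole muscle in the table's columns, and which of these was sequenced is not settled by the labels. Mice of all 5 groups were 8 weeks old and had received 2.5 mg tamoxifen in sunflower oil a day for 5 days, then 10 days of washout. The labels give no allele beside the strain and do not say whether replicates came from separate mice, so a p-value measures only the spread between these libraries, which may be technical. Levels are in FPKM, fragments per length of transcript scaled to all mapped fragments of the library, a scale per length on which genes can be set side by side, and 0.001 was the lowest value listed.

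Neutrophils are made in the bone marrow and carry most of their antimicrobial proteins ready in granules. Transcripts of the primary granules, such as Mpo and Elane, are highest in promyelocytes, those of the secondary granules, such as Ltf, Camp and Ngp, in the myelocytes that follow, and S100a8, S100a9 and Retnlg stay abundant in mature cells. Circulating neutrophils are few in resting muscle and enter it in large numbers after injury.

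S100a8 (chromosome 3, 90669071 to 90670034, mm10) and S100a9 (chromosome 3, 90692633 to 90695691), the pair that encodes the calcium-binding protein calprotectin, lie 22598 bases apart. Camp, Ngp and Ltf lie on chromosome 9 at 109847377 to 109849456, 110419808 to 110423012 and 111019292 to 111042766. Lcn2 lies on chromosome 2 (32384637 to 32387739), Retnlg on chromosome 16 (48872608 to 48874498), Mpo on chromosome 11 (87793784 to 87804412) and Elane on chromosome 10 (79886312 to 79888216). Promoter windows of 300 bases, from 250 bases before to 50 bases after the start of transcription, were found for 9 of the 9 genes in RefSeq (build GRCm38.p6). The windows of the calprotectin pair, of 2 secondary granule genes and of 2 primary granule genes are shown, since these 3 pairs differ in how their levels were spread over the lineage-positive libraries. Capitals mark matches, on either strand, to 5 motifs, a long and a short one like those of PU.1, one each like those of C/EBP and RUNX factors, and the TATA box, each spelled out after the sequences.
S100a8 (chr3:90668821-90669120, + strand): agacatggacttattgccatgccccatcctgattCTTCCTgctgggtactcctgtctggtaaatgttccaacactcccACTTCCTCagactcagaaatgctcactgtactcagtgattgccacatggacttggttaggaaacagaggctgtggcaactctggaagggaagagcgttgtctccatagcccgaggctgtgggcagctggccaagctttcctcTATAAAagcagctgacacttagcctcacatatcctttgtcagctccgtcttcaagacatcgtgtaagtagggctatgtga
S100a9 (chr3:90695672-90695971, - strand): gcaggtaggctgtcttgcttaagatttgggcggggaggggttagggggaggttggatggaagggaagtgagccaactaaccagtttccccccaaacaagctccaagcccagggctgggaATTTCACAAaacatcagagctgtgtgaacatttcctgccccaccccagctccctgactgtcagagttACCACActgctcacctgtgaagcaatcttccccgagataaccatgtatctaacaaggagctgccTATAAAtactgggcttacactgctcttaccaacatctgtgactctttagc
Ngp (chr9:110419558-110419857, + strand): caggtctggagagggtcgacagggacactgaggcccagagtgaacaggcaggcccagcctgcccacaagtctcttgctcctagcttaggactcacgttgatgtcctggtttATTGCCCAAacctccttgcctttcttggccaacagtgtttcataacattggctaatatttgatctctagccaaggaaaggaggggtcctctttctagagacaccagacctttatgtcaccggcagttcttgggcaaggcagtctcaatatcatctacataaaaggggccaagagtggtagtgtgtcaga
Ltf (chr9:111019042-111019341, + strand): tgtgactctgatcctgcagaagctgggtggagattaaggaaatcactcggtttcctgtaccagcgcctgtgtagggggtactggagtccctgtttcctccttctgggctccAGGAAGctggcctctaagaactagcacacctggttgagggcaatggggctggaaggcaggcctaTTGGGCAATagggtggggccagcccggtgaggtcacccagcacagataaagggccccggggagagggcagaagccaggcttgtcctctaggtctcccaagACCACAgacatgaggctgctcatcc
Mpo (chr11:87793534-87793833, + strand): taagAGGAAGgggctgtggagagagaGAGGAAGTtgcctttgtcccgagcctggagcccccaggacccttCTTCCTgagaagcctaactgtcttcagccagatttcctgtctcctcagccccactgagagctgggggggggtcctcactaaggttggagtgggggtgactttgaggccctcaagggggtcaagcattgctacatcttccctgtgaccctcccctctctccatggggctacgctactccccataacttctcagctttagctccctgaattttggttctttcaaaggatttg
Elane (chr10:79886062-79886361, + strand): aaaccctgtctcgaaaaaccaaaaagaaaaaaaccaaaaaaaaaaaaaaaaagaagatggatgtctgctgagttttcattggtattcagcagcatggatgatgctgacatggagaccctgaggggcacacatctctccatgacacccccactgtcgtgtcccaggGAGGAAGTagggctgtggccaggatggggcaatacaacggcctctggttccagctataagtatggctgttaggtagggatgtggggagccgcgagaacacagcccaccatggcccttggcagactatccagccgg

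The long PU.1-like motif GAGGAAGT stood in 3 of the 9 windows, those of S100a8, Mpo and Elane, and in 3.20% of 32851 windows of all RefSeq genes. The short PU.1-like AGGAAG, which the long motif contains, stood in 6 of 9 windows and in 35.4% of all windows. The C/EBP-like TTNNGNAAT was found in the windows of S100a9, Ngp and Ltf, 3 of 9, against 11.5% of all windows. The TATA box, searched as TATAAA, stood at position -30 of the S100a8 window and at the RefSeq start of S100a9, which lies 30 bases outside the S100a9 locus of the deposited table, and it was in 13.6% of all windows. The RUNX-like TGTGGT was found in 2 of 9 windows, those of S100a9 and Ltf, and in 16.8% of all windows. The Retnlg window held none of the 5 motifs. A match describes the letters of a window and is no sign of binding.

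S100a8 was among the most abundant transcripts of the lineage-positive fraction. Its level was 5591, 2903, 38348 and 3129.6 FPKM in LinPos replicates 1 to 4. It was 30.0, 43.9, 710 and 39.1 FPKM in LinNeg, 25.2, 0.828 and 8.15 FPKM in LinNegSca1Pos, 183, 218, 72.3 and 192 FPKM in LinNegSca1Neg, and 65.6, 0.724, 83.7 and 16.1 FPKM in Whole. Replicate 3 stood far above the other libraries of its group in LinPos and again in LinNeg, and replicate 2 was the low library of LinNegSca1Pos and of Whole. In LinPos replicate 3 S100a8 ranked 1 among all genes by FPKM and alone made up 7.61% of the summed FPKM, and in LinPos replicates 1, 2 and 4 it ranked 2, 5 and 13. Levels are from bulk RNA, so that more cells of a type and more RNA per cell cannot be told apart.

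S100a9, the partner subunit, was lower than S100a8 in each LinPos library and was likewise highest in replicate 3. It was at 4652, 2316, 18061 and 1829 FPKM in LinPos, 28.3, 43.8, 289 and 14.4 FPKM in LinNeg, 20.2, 2.55 and 10.7 FPKM in LinNegSca1Pos, 174, 180.1, 38.8 and 115 FPKM in LinNegSca1Neg, and 60.3, 0.522, 71.3 and 19.7 FPKM in Whole. It ranked 4, 11, 2 and 31 in LinPos replicates 1 to 4. As for S100a8, LinPos lay above every other library, and the other 4 groups overlapped in part.

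The secondary granule genes were lower than the calprotectin pair in each of the 4 LinPos libraries. Ngp, neutrophilic granule protein, was at 908, 324, 2859.6 and 225 FPKM in LinPos, 2.60, 5.33, 52.9 and 1.63 FPKM in LinNeg, 4.00, 0.390 and 3.25 FPKM in LinNegSca1Pos, 31.9, 11.7, 2.56 and 17.2 FPKM in LinNegSca1Neg, and 16.3, 0.353, 22.6 and 4.32 FPKM in Whole. Camp, the cathelicidin from which an antimicrobial peptide is cut, was at 522, 159.6, 1935 and 247 FPKM in LinPos, 1.35, 3.84, 33.5 and 0.948 FPKM in LinNeg, 2.97, 0.589 and 2.70 FPKM in LinNegSca1Pos, 14.02, 5.18, 0.643 and 10.6 FPKM in LinNegSca1Neg, and 6.49, 0.001, 8.57 and 1.10 FPKM in Whole. Both genes were highest in replicate 3 of LinPos and of LinNeg and lowest in replicate 3 of LinNegSca1Neg. Outside LinPos the groups overlapped for both genes.

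Ltf, which encodes the iron-binding protein lactoferrin, was at 224, 65.7, 377 and 26.0 FPKM in LinPos, 3.82, 7.83, 11.2 and 0.182 FPKM in LinNeg, 1.04, 0.0758 and 0.0797 FPKM in LinNegSca1Pos, 7.27, 2.83, 0.580 and 2.51 FPKM in LinNegSca1Neg, and 3.43, 0.001, 3.75 and 1.58 FPKM in Whole. Its lowest LinPos library was replicate 4, and so was its lowest LinNeg library. Lcn2, which encodes a lipocalin that binds bacterial siderophores, was at 276, 96.3, 1327 and 85.9 FPKM in LinPos, 6.80, 17.6, 20.1 and 3.89 FPKM in LinNeg, 2.86, 14.8 and 2.03 FPKM in LinNegSca1Pos, 11.5, 5.43, 2.56 and 5.95 FPKM in LinNegSca1Neg, and 4.50, 0.759, 7.20 and 2.39 FPKM in Whole. Lcn2, which cells other than neutrophils can also express, was at its highest LinNegSca1Pos level in replicate 2, the library of that group where S100a8, S100a9, Camp, Ngp and Ltf were lowest. The neutrophil attractant gene Cxcl5 was at 0.314, 23.1 and 0.274 FPKM in the 3 LinNegSca1Pos libraries, so that it too was highest in replicate 2. Other attractant genes of its list were split. Cxcl3, Cxcl12 and Ppbp were also highest in replicate 2. Cxcl1 was highest in replicate 3, at 244, 264 and 336 FPKM, and Cxcl2 was lowest in replicate 2, at 6.21, 2.84 and 7.25 FPKM.

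Retnlg, which encodes a secreted resistin-like protein of mouse neutrophils, was at 412, 300.9, 1929 and 164 FPKM in LinPos, 3.13, 3.52, 19.9 and 2.27 FPKM in LinNeg, 0.874, 0.001 and 1.76 FPKM in LinNegSca1Pos, 16.3, 21.5, 5.83 and 12.4 FPKM in LinNegSca1Neg, and 3.83, 0.387, 5.31 and 0.645 FPKM in Whole. It was higher in every LinNegSca1Neg library than in any LinNegSca1Pos or Whole library. LinNeg replicate 3 lay within the range of LinNegSca1Neg, and the other 3 LinNeg libraries lay below it.

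The primary granule genes were the lowest of the 9 genes in LinPos replicates 1 to 3. Mpo, the haem enzyme that makes hypochlorous acid, was at 32.3, 12.5, 114 and 24.9 FPKM in LinPos. Elane, neutrophil elastase, was at 23.8, 9.59, 161 and 41.5 FPKM there. Outside LinPos, Mpo reached 1 FPKM in 1 of 15 libraries, LinNegSca1Neg replicate 4 at 1.36 FPKM, and Elane in 0 of 15. Elane was listed at 0.001 in 6 of these 15 libraries, namely LinNeg replicates 1 and 2, LinNegSca1Pos replicates 2 and 3, and Whole replicates 2 and 4. In LinNeg both genes were highest in replicate 3, at 0.885 FPKM for Mpo and 0.880 FPKM for Elane.

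**Figure D1:**
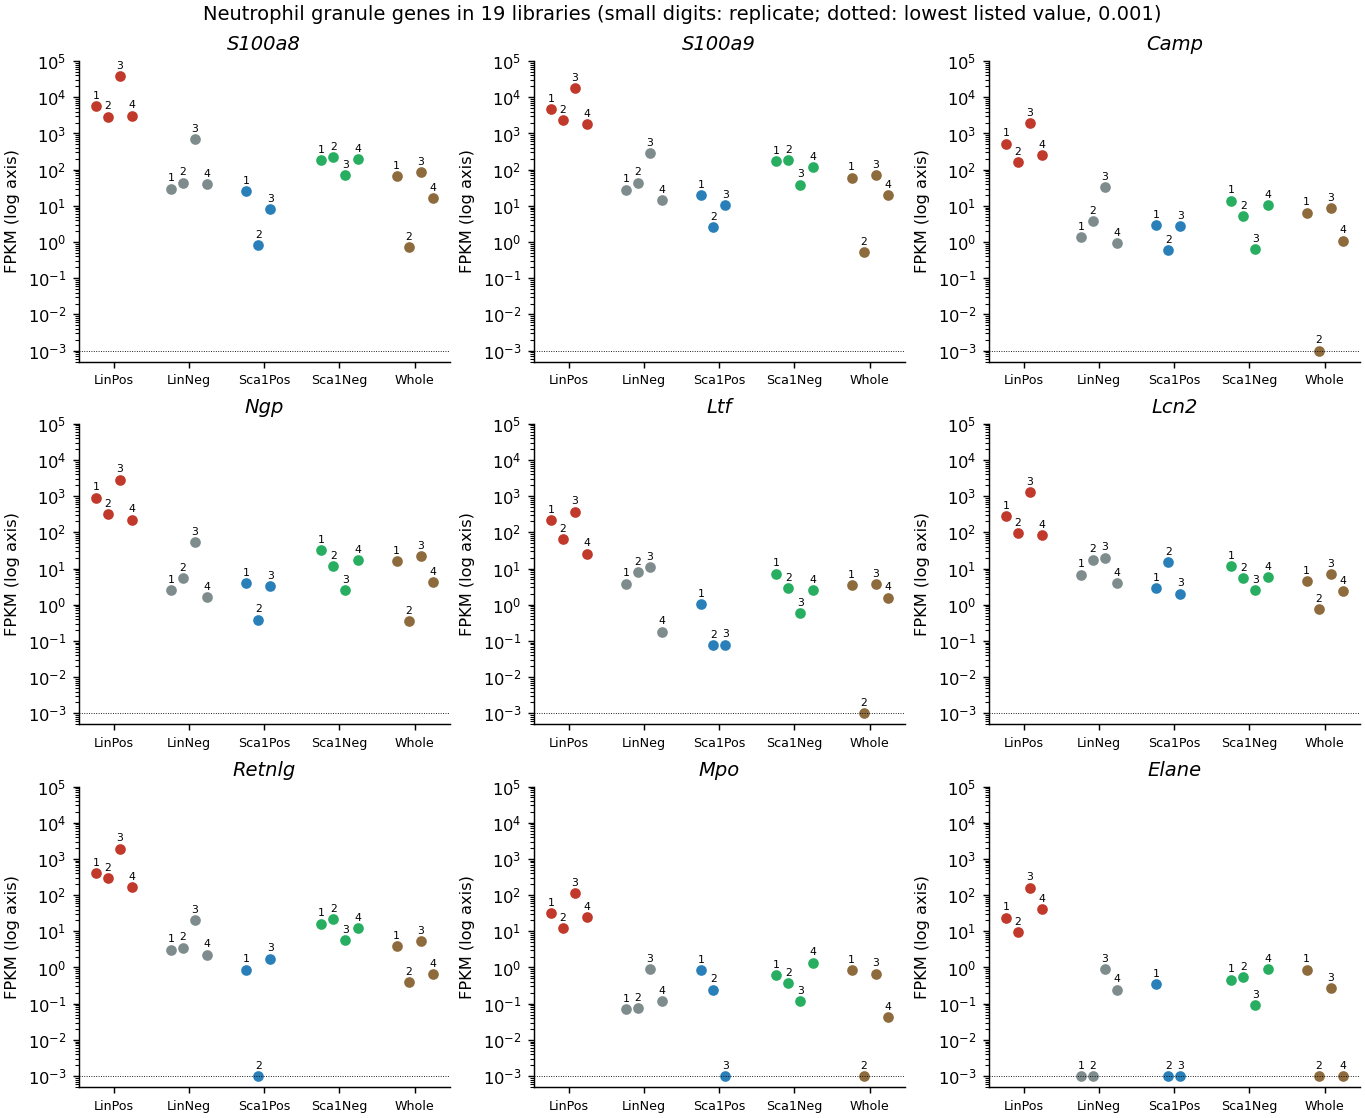
FPKM of the 9 genes (vertical axes, log scale) in the 19 libraries, each point a library with its replicate number, by group from left to right: LinPos, LinNeg, LinNegSca1Pos (Sca1Pos), LinNegSca1Neg (Sca1Neg) and Whole. For each gene the 4 LinPos libraries lie above the other 15, and replicate 3 is the highest of both LinPos and LinNeg.

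For each of the 9 genes the lowest LinPos library lay above the highest of the other 15 libraries, a pattern that 13.2% of the 14043 genes showed and that the choice of the genes fixed. Summed, the 9 genes made up 3.32%, 1.64%, 12.9% and 1.17% of all FPKM in LinPos replicates 1 to 4. The share was 0.0794% ± 0.113 in LinNeg, 0.0074% ± 0.0045 in LinNegSca1Pos, 0.0864% ± 0.0449 in LinNegSca1Neg and 0.0208% ± 0.0192 in Whole (SD, n = 3 for LinNegSca1Pos and n = 4 for the others). In LinNeg the spread came from replicate 3, at 0.249%, while the other 3 libraries lay between 0.0153% and 0.0304%.

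The 9 genes did not differ between LinPos libraries by 1 common factor. LinPos replicate 3 exceeded the highest of the other 3 LinPos libraries 6.86-fold for S100a8, 4.79-fold for Lcn2, 4.68-fold for Retnlg, 3.88-fold for S100a9, 3.81-fold for Elane, 3.70-fold for Camp, 3.46-fold for Mpo and 3.15-fold for Ngp, but 1.68-fold for Ltf (ratios of FPKM + 1). Thus 3 of the 9 genes were at 4-fold or more, where 16 genes in all, of 5510 with at least 10 FPKM in that library, reached this ratio. The same count was 12, 9 and 7 genes for replicates 1, 2 and 4, with none of the 9 among them. Replicate 3 was the highest LinPos library for 9 of the 9 genes and for 35.6% of the genes with at least 10 FPKM there. The 9 genes were chosen for their level in this library, which favoured both of their counts. Neither count is therefore read against the other genes. The highest other library was replicate 1 for each gene but Elane. Over replicate 4 the order was different. The FPKM ratios were 15.4 for Lcn2 and 14.5 for Ltf, the largest, and 4.59 for Mpo and 3.88 for Elane, the smallest. Replicates 1 and 2 were known to differ from replicates 3 and 4 over all genes. The part of this in the ratios given here and below was not tested.

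The order of the other 3 libraries depended on the gene. Replicate 4 was the lowest for S100a9, Ngp, Ltf, Lcn2 and Retnlg, and replicate 2 was the lowest for S100a8, Camp, Mpo and Elane. Of the secondary granule genes, LinPos replicate 4 held 0.116 times the replicate 1 level for Ltf, 0.248 for Ngp and 0.473 for Camp. Of the primary granule genes it held 0.770 times that level for Mpo and 1.75 times for Elane. This ratio was 0.311 for Lcn2, 0.393 for S100a9, 0.398 for Retnlg and 0.560 for S100a8, so that Camp lay within the range of these other genes. Ltf and Elane had the lowest and the highest ratio, so a comparison of them shows the widest contrast. The ratio of Elane, a primary granule gene, to Ltf, a secondary granule gene, was 0.106, 0.146, 0.427 and 1.60 in LinPos replicates 1 to 4. It was thus lower in replicates 1 and 2 than in replicates 3 and 4, and replicate 4 was the only LinPos library with more Elane than Ltf. Within the primary granule pair, Mpo exceeded Elane in LinPos replicates 1 and 2, at ratios of 1.36 and 1.31, and was below it in replicates 3 and 4, at 0.710 and 0.600.

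**Figure D2:**
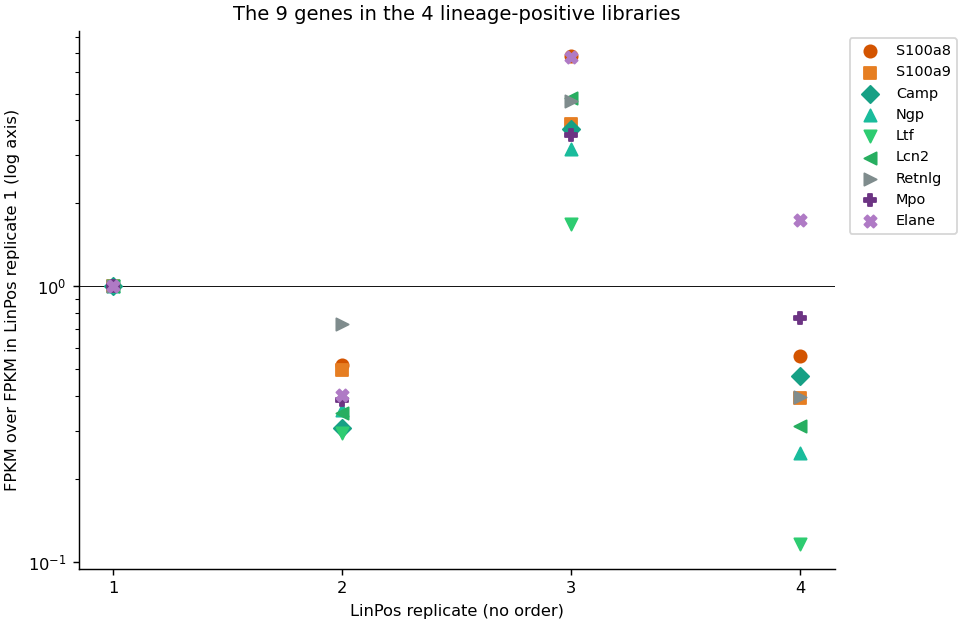
FPKM of each of the 9 genes in the 4 LinPos libraries (horizontal axis) divided by its FPKM in LinPos replicate 1 (vertical axis, log scale), with a symbol per gene. In replicate 3 the 9 genes lie between 1.69 and 6.86, and in replicate 4 they run from 0.116 for Ltf to 1.75 for Elane.

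Other neutrophil genes were also high in LinPos replicate 3, by smaller ratios. Of the tested members of the fixed lists, 6 of 8 other primary granule genes, 12 of 15 other secondary and tertiary granule genes and 22 of 26 other genes of mature neutrophils were highest in replicate 3 among the LinPos libraries. Their median ratios to the highest other LinPos library were 1.54, 1.62 and 1.88. For all tested genes the share highest in replicate 3 was 26.4% and the median ratio 0.832. Csf3r, the receptor of the granulocyte growth factor G-CSF, was at 80.2, 44.9, 62.5 and 6.02 FPKM and was not highest in replicate 3. The collagenase gene Mmp8, by contrast, was at 47.6, 23.2, 299 and 14.3 FPKM, 6.16-fold above the highest other LinPos library.

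Lists of other cells differed from one another in the same library, where 26.4% of all tested genes were highest. Cell cycle genes were highest in LinPos replicate 3 for 10 of 10 tested members (median ratio 1.91) and T and NK cell genes for 7 of 9 (median ratio 1.18). Genes of granulocyte transcription factors were highest there for 6 of 7, growth factors, attractants and receptors for 8 of 12, and receptors of calprotectin with other S100 genes for 5 of 14. Macrophage and monocyte genes were highest there for 2 of 13 (median ratio 0.594), B lineage genes for 3 of 10, mesenchymal progenitor genes for 2 of 8 and genes of mast cells, basophils and eosinophils for 1 of 8. The counts of B lineage, mesenchymal progenitor, and receptor and S100 genes are not set apart from the share of all tested genes. No member was highest in LinPos replicate 3 among 8 erythroid, 5 platelet, 6 satellite cell and 8 blood endothelial genes. The 8 endothelial genes summed to 547 FPKM in LinPos replicate 3, against 1515, 1638 and 1265 FPKM in replicates 1, 2 and 4, so that this library, labelled like the other 3, had lower endothelial and higher neutrophil levels. The part of these differences in cell make-up in the 9 genes' levels was not tested.

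**Figure D3:**
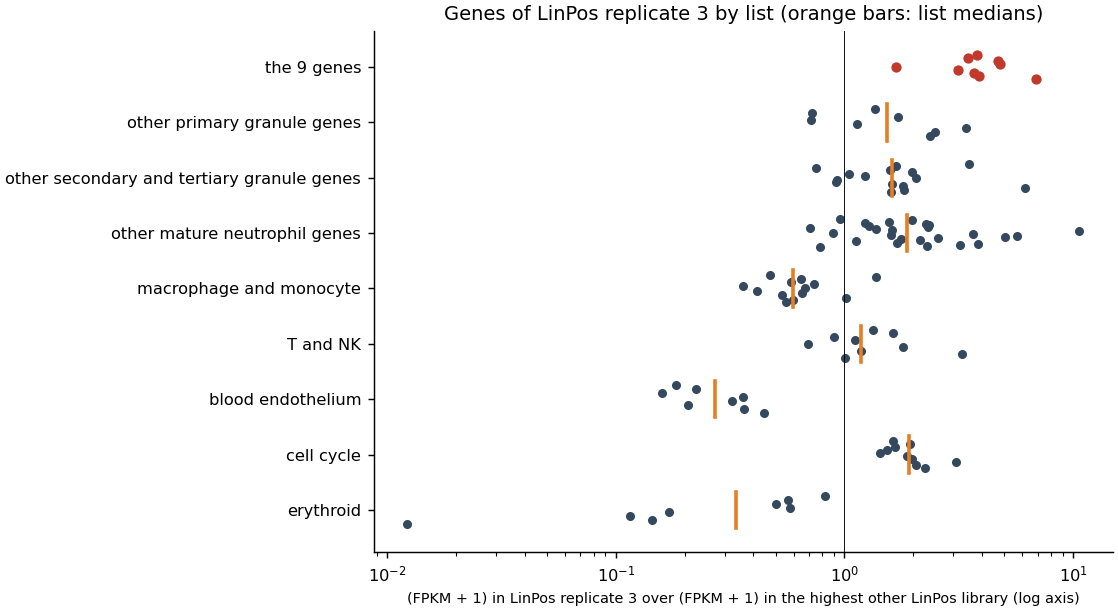
Level in LinPos replicate 3 over the highest of the other 3 LinPos libraries, as a ratio of FPKM + 1 (horizontal axis, log scale), for the 9 genes and for members of fixed lists (rows), each point a gene and each orange bar the median of a list. The 9 genes lie between 1.68 and 6.86, the median of cell cycle genes is 1.91, and all 8 blood endothelial genes lie below 1.

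Beside the 9 genes, those with the largest ratio in LinPos replicate 3 included several known neutrophil genes. 1100001G20Rik, a synonym of Wfdc21 in RefSeq, was at 74.6, 29.3, 1048 and 97.7 FPKM in LinPos, a ratio of 10.6. With small RNA entries left aside, Mmp8 came next, then Stfa2l1 at a ratio of 5.69 and Mrgpra2a at 5.38. After these came BC049730 at 5.16 and Stfa1 at 5.03. Stfa2l1 and Stfa1 belong to a family of close copies whose reads may be shared. Vpreb3, a component of the pre-B cell receptor, was at 1.24, 1.39, 10.2 and 0.572 FPKM in LinPos (ratio 4.69). The rest of the 10 largest were entries of small RNAs. Mir18, Snord104 and Snora44 ranked 1, 2 and 4 of the 10, with ratios of 92.0, 13.2 and 7.25. Mir18 was listed at 0.001 in LinPos replicates 1, 2 and 4.

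Neutrophil genes outside the 9 were tested between LinPos and LinNeg. Of 49 tested genes of the 3 lists, 47 were higher in LinPos and 1 was lower (limma adjusted p under 0.05), where 25.3% of all tested genes were higher and 25.8% lower. Their median log2 difference was 3.75, against 0.0029 for all tested genes. The lists were drawn up with earlier results of these data known. Against Whole, 48 of the 49 were higher in LinPos, and 0 were lower, where 48.8% of all tested genes were higher and 22.9% lower. Some of the 49, such as Ctsg, Itgb2l and Fpr1, stayed under 1 FPKM in every library outside LinPos. They passed the filter through LinPos alone, so that a higher call was nearly fixed for them. The counts are therefore a description.

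Among the primary granule genes 7 of 8 were higher in LinPos. The lysozyme genes Lyz1 and Lyz2, close paralogs that macrophages also express, were at 459 ± 163 against 1.33 ± 0.429 FPKM and at 2794 ± 1075 against 26.2 ± 12.0 FPKM in LinPos and LinNeg (SD, n = 4 each). Ctsg, cathepsin G, a primary granule protease like Elane, was at 18.5 ± 15.7 FPKM in LinPos and listed at 0.001 in every LinNeg library. As it passed the filter through LinPos alone, no test is read from it. Ctsc, the protease that activates the granule serine proteases, was at 220 ± 74.4 against 5.04 ± 0.485 FPKM in LinPos and LinNeg. Prss57, a further serine protease of the list, was the gene that went the other way, at 1.43 ± 0.514 FPKM in LinPos and 3.80 ± 0.825 FPKM in LinNeg (log2 difference -0.99 ± 0.18 SE, limma adjusted p = 9.8e-05).

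All 15 tested secondary and tertiary granule genes were higher in LinPos than in LinNeg, with a median log2 difference of 4.32. Chi3l3, a chitinase-like protein also made by macrophages, was at 169 ± 135 FPKM in LinPos and 1.67 ± 2.31 FPKM in LinNeg (log2 difference 5.92 ± 0.67 SE, limma adjusted p = 5.0e-07). Genes of the NADPH oxidase that makes superoxide, Cybb, Ncf1 and Ncf4, differed by 5.89, 5.28 and 4.82 on the log2 scale. Of the other genes of mature neutrophils 25 of 26 were higher in LinPos. They were led by Alox5ap, which serves leukotriene synthesis, at 277 ± 76.5 against 1.69 ± 0.619 FPKM, and by 1100001G20Rik at 312.4 ± 491 against 3.50 ± 6.26 FPKM. The cytokine gene Il1b was at 486 ± 304 against 7.46 ± 3.75 FPKM and Ifitm6 at 99.6 ± 66.6 against 1.03 ± 0.792 FPKM in LinPos and LinNeg.

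Of 7 granulocyte transcription factor genes, 4 were higher and 1 lower in LinPos than in LinNeg. Cebpe, needed for secondary granule genes, was at 3.74 ± 2.27 FPKM in LinPos and 0.0136 ± 0.0252 FPKM in LinNeg (log2 difference 2.12 ± 0.21 SE). Gfi1 and Cebpa, which act in earlier granulocyte precursors, were higher by 1.35 and 1.29 on the log2 scale (limma adjusted p = 0.037 for Cebpa). Cebpe and Gfi1 stayed under 1 FPKM in every library outside LinPos and passed the filter through LinPos alone. Their calls are therefore a description. Cebpd, which many cell types express, averaged 24.9 ± 22.2 FPKM in LinPos and 92.7 ± 58.0 FPKM in LinNeg and was called lower (limma adjusted p = 0.011). In replicates 1 to 4 Cebpd was at 6.44, 5.00, 44.4 and 43.8 FPKM in LinPos and 37.8, 49.3, 128 and 155 FPKM in LinNeg. Cebpa was at 15.5, 13.9, 5.57 and 3.58 FPKM in LinPos and 4.29, 7.32, 1.22 and 1.12 FPKM in LinNeg. In both groups replicates 1 and 2 thus lay apart from replicates 3 and 4, in opposite directions for the 2 genes. Among growth factors, attractants and receptors, 9 of 12 were higher and Cxcl1, a neutrophil attractant, was lower, at 38.6 ± 21.1 FPKM in LinPos and 378 ± 51.8 FPKM in LinNeg (limma adjusted p = 1.7e-09). Csf3r was at 48.4 ± 31.7 against 0.658 ± 0.354 FPKM, Cxcl2 at 298 ± 139.6 against 6.26 ± 1.012 FPKM, and the receptor subunit genes Csf2ra and Csf2rb differed by 4.60 and 4.11 on the log2 scale.

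Genes of proposed calprotectin receptors and other S100 genes differed in both directions. Of 14 tested, 3 were higher and 5 lower in LinPos than in LinNeg, where 25.3% of all tested genes were higher and 25.8% lower. With so few genes, these counts are not set apart from those shares. Higher were Cd33, at 33.1 ± 9.36 against 0.374 ± 0.443 FPKM, Emb, with a log2 difference of 1.88 ± 0.325 (SE), and S100a4, at 732 ± 119 against 256 ± 65.3 FPKM. S100b, known from glial cells, was lower, at 1.27 ± 0.499 FPKM in LinPos and 16.1 ± 4.11 FPKM in LinNeg (limma adjusted p = 1.4e-07). Markers of several other cell types were higher in LinPos too, so that the fraction was no pure neutrophil sample. Macrophage and monocyte genes were higher for 13 of 13 and T and NK cell genes for 9 of 9. Mast cell, basophil and eosinophil genes were higher for 8 of 8 and blood endothelial genes for 7 of 8. Some macrophage, T and NK, and mast cell or eosinophil genes stayed under 1 FPKM in every library outside LinPos. They passed the filter through LinPos alone, so that a higher call was nearly fixed for them. The counts of these leukocyte lists are therefore a description. B lineage genes were higher for 5 of 10, erythroid genes for 3 of 8 and platelet genes for 2 of 5. In these 3 lists 1 gene each was lower, namely Ebf1, Car1 and Gp1bb. With so few genes, the counts of these 3 lists are not set apart from the shares of all tested genes. Cell cycle genes were higher for 10 of 10, and mesenchymal progenitor and satellite cell genes were lower for 8 of 8 and 6 of 6.

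Outside LinPos 7 of the 9 genes were tested, since they were chosen for their level in a LinPos library. The choice was made with earlier results of these data known, so the tests are not shown to be free of it. Mpo and Elane reached 1 FPKM in at most 1 library there and had passed the filter through LinPos, so that no result is read from them. Between LinNegSca1Pos and LinNegSca1Neg, 3 of the 7 genes were lower in LinNegSca1Pos and 0 were higher, where 32.1% of all tested genes were lower and 22.4% higher. The 3 genes were S100a8, S100a9 and Retnlg, and for each of them the libraries of the fractions did not overlap. S100a8 averaged 11.4 ± 12.5 FPKM in LinNegSca1Pos and 166 ± 64.5 FPKM in LinNegSca1Neg (SD, n = 3 and n = 4), which on the log2 scale is -4.35 ± 1.31 (SE, with a limma adjusted p of 0.0091). S100a9 averaged 11.1 ± 8.83 against 127 ± 65.6 FPKM (log2 difference -3.52 ± 1.19, limma adjusted p = 0.018). Retnlg averaged 0.880 ± 0.882 against 14.02 ± 6.62 FPKM (log2 difference -2.99 ± 0.77, limma adjusted p = 0.0031). With so few genes, 3 calls among 7 are not set apart from the 32.1% of all tested genes.

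The other 4 genes were not called between these fractions in the fit of all groups. Ngp was at 2.54 ± 1.90 FPKM in LinNegSca1Pos and 15.9 ± 12.3 FPKM in LinNegSca1Neg (log2 difference -2.05 ± 1.12, limma adjusted p = 0.13), Ltf differed by -1.45 ± 0.86 (adjusted p = 0.16) and Camp by -1.18 ± 1.04 (adjusted p = 0.35). Lcn2 differed by -0.23 ± 0.83 (limma adjusted p = 0.84). Each of these 4 genes overlapped between the fractions. Ngp and Ltf were called lower in LinNegSca1Pos when the compared groups alone were fitted (limma adjusted p = 0.035 and 0.033) and with replicates 1 and 2 alone of LinPos, LinNeg and LinNegSca1Neg (log2 differences -2.73 and -2.08, limma adjusted p = 0.031 and 0.016). The calls of S100a8 and S100a9 were lost without LinNegSca1Pos replicate 2 (log2 differences -3.32 and -2.81, limma adjusted p = 0.064 and 0.094), and in a fit with replicates 3 and 4 alone of LinPos, LinNeg and LinNegSca1Neg (adjusted p = 0.057 and 0.14), while Retnlg kept its call in both.

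Ptprc and most B lineage genes were lower in LinNegSca1Pos, as the 3 called genes were. The pan-leukocyte gene Ptprc was at 0.423 ± 0.472 FPKM in LinNegSca1Pos and 3.61 ± 1.18 FPKM in LinNegSca1Neg (limma adjusted p = 2.1e-04). B lineage genes were lower in LinNegSca1Pos for 9 of 10, with summed levels of 11.5 to 27.8 FPKM against 36.4 to 90.2 FPKM, and 11 of the 13 in the list stayed under 1 FPKM in every LinNegSca1Pos library, against 2 in LinNegSca1Neg. T and NK cell genes were lower for 2 of 9, and of the 49 other neutrophil genes 10 were lower and 3 higher, where 32.1% of all tested genes were lower and 22.4% higher. Macrophage and monocyte genes were higher for 3 of 13 and lower for 0, with summed levels of 94.8 to 168 FPKM in LinNegSca1Pos and 18.7 to 36.2 FPKM in LinNegSca1Neg. Most of the LinNegSca1Pos sum was Ly6c2, a gene of monocytes that other cells also express, and without it the sums overlapped, at 23.4 to 72.0 FPKM in LinNegSca1Pos and 13.96 to 33.2 FPKM in LinNegSca1Neg. The part of other leukocytes in the difference of the 3 genes was not tested.

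Between LinNegSca1Neg and Whole, 2 of the 7 genes were higher in LinNegSca1Neg and 0 were lower, where 50.0% of all tested genes were higher and 18.2% lower. Retnlg averaged 14.02 ± 6.62 FPKM in LinNegSca1Neg and 2.54 ± 2.42 FPKM in Whole, with no overlap (log2 difference 2.25 ± 0.71, limma adjusted p = 0.0093). S100a8 averaged 166 ± 64.5 against 41.5 ± 39.4 FPKM, with overlap (log2 difference 2.94 ± 1.21, limma adjusted p = 0.039), and S100a9 just missed the threshold at 127 ± 65.6 against 38.0 ± 33.4 FPKM (log2 difference 2.51 ± 1.10, adjusted p = 0.052). Ptprc was higher in LinNegSca1Neg as well, at 3.61 ± 1.18 against 1.36 ± 0.281 FPKM in Whole (limma adjusted p = 0.0091). B lineage genes were higher for 10 of 10, macrophage and monocyte genes lower for 11 of 13, and of the other neutrophil genes 10 were higher and 6 lower. The median of all tested genes was itself 0.50 higher in LinNegSca1Neg on the log2 scale. With median-of-ratios scaling, which moves that median by -0.54, S100a8 and Retnlg differed by 2.23 and 1.69 and both calls were lost (limma adjusted p = 0.12 and 0.0504). Without Whole replicate 2, S100a8 differed by 1.75 (adjusted p = 0.18).

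LinNeg and LinNegSca1Pos were also compared with Whole. Of the 7 genes 0 were called in either comparison by limma, and 0 had an unadjusted p under 0.05, where 47.5% and 44.0% of all tested genes were higher and 21.8% and 21.6% lower. In LinNeg the nearest was Lcn2, at 12.1 ± 7.94 FPKM in LinNeg and 3.71 ± 2.78 FPKM in Whole (log2 difference 1.45 ± 0.77, limma adjusted p = 0.10), which passed when LinPos was kept out of the estimate of spread (adjusted p = 0.042). S100a8 averaged 206 ± 336 FPKM in LinNeg and 41.5 ± 39.4 FPKM in Whole, a log2 difference of 1.97 ± 1.21 that was 0.92 without LinNeg replicate 3. Camp and Ngp differed between LinNeg and Whole by 0.59 and 0.03, and by -0.32 and -0.91 without that library. In LinNegSca1Pos the log2 differences from Whole ran from -1.41 ± 1.31 for S100a8 to 0.49 ± 0.83 for Lcn2.

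**Figure D4:**
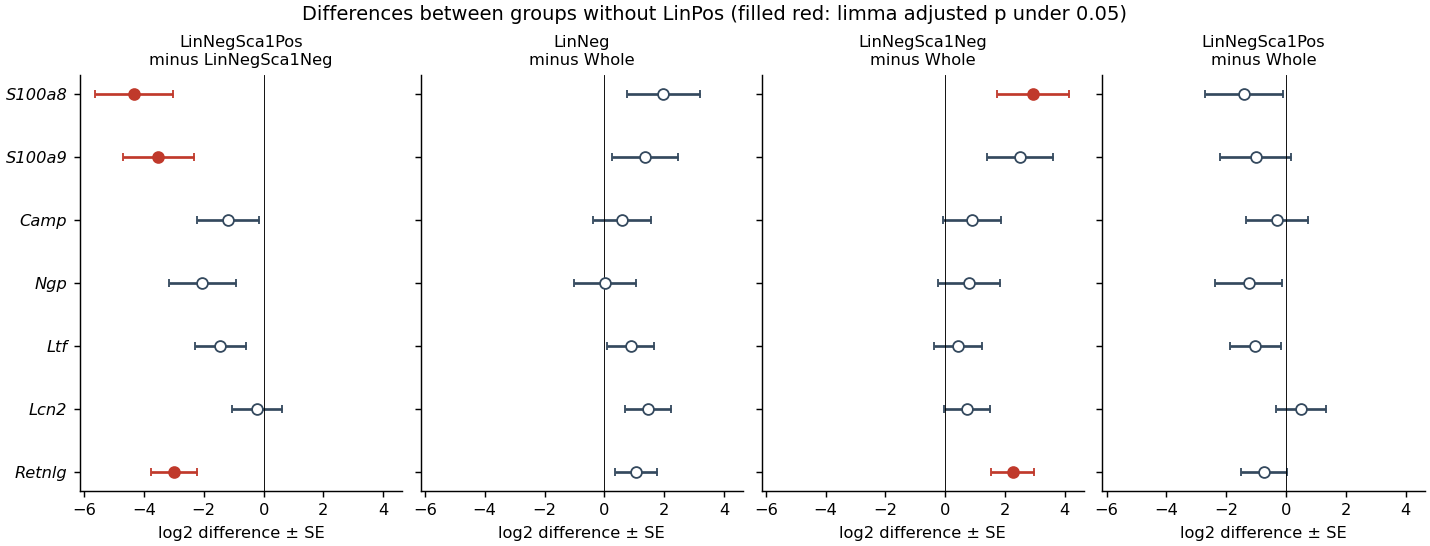
Log2 differences of 7 genes (rows; Mpo and Elane are left out, as they were under 1 FPKM in these groups but for Mpo in 1 library) with their standard errors as bars in the 4 comparisons without LinPos (panels), on the log2(FPKM + 1) scale, where filled red points mark a limma adjusted p under 0.05 and the first-named group is higher to the right of 0. S100a8, S100a9 and Retnlg are called lower in LinNegSca1Pos than in LinNegSca1Neg, and S100a8 and Retnlg higher in LinNegSca1Neg than in Whole.

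LinNeg replicate 3 was also high in erythroid, B precursor and cell cycle genes. The erythroid carbonic anhydrase gene Car1 was at 1.34, 0.560, 25.3 and 1.40 FPKM in LinNeg replicates 1 to 4, and 12 erythroid genes summed to 391, 347, 7717 and 2811 FPKM. Vpreb3 was at 0.975, 0.764, 10.1 and 0.105 FPKM, and 10 cell cycle genes summed to 17.8, 20.5, 54.4 and 26.2 FPKM. These genes were thus highest in the same library as the 9 genes. LinPos replicate 3 shared the high Vpreb3 and cell cycle levels but had the lowest erythroid sum of its group, 2012 FPKM against 4274 to 16816 FPKM in the other 3 LinPos libraries.

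The proportion of the calprotectin subunits differed between libraries in another way. S100a8 over S100a9 was 1.20, 1.25, 2.12 and 1.71 in LinPos replicates 1 to 4. It was 1.06, 1.00, 2.46 and 2.72 in LinNeg and 1.05, 1.21, 1.86 and 1.66 in LinNegSca1Neg. In these 3 groups it was thus 1.00 to 1.25 in the 6 libraries numbered 1 or 2 and 1.66 to 2.72 in the 6 numbered 3 or 4, whatever the level of the genes. It was 1.25, 0.324 and 0.765 in LinNegSca1Pos and 1.09, 1.39, 1.17 and 0.816 in Whole, where no such step was seen. Replicates 1 and 2 of LinPos, LinNeg and LinNegSca1Neg were already known to differ from replicates 3 and 4 over all genes, and the labels name no batch. The ratio of Ngp to Camp, of the same granules, showed no step of this kind, at 1.74, 2.03, 1.48 and 0.913 in LinPos, 1.92, 1.39, 1.58 and 1.72 in LinNeg and 2.28, 2.26, 3.97 and 1.63 in LinNegSca1Neg.

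**Figure D5:**
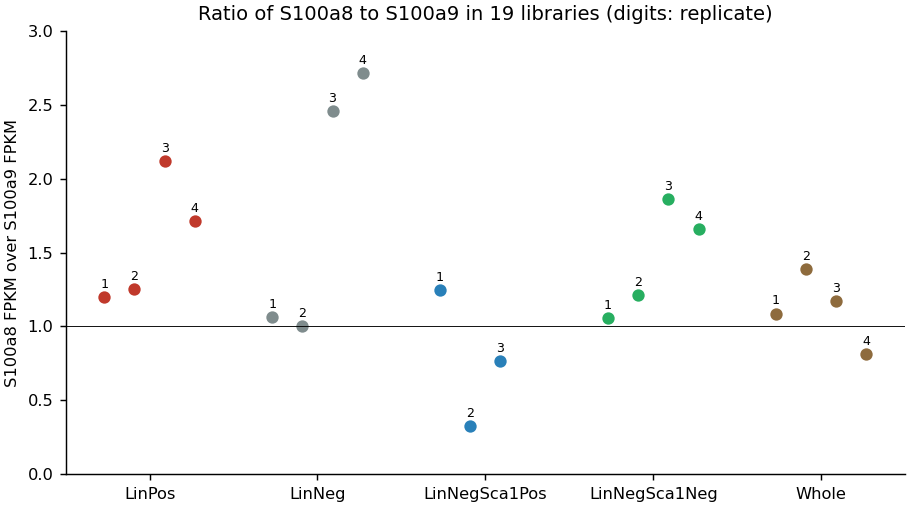
FPKM of S100a8 over FPKM of S100a9 (vertical axis, linear, with a line at 1) in the 19 libraries by group, each point a library with its replicate number. In LinPos, LinNeg and LinNegSca1Neg, replicates 1 and 2 lie between 1.00 and 1.25 and replicates 3 and 4 between 1.66 and 2.72.

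The genes whose profile over the 19 libraries was most like the mean profile of the 9 genes were led by other neutrophil genes. Pearson's r of log2(FPKM + 1) with that mean was 0.984 for Pglyrp1, a granule peptidoglycan recognition protein, 0.981 for Chi3l3, 0.975 for Mmp8, 0.971 for Parvg, 0.968 for 1810033B17Rik, 0.966 for Spn, 0.963 for Arhgdib, 0.959 for Ikzf1 and 0.958 for Rac2. In this mean profile the 4 LinPos libraries stood apart from the other 15. Over the 15 libraries outside LinPos the nearest genes were Zwint at 0.844, Car1 at 0.820, Ets1 at 0.759, Atf1 at 0.753 and Zfp68 at 0.736. There the 9 genes themselves ran from 0.620 for Lcn2 to 0.956 for Ngp. Each of the 9 is a part of that mean, which raises its own r, so these values are not set against those of other genes. The libraries of a group share a sort, and values of low genes depend on depth.

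Depth is unknown, since FPKM were deposited without counts. The value of a single fragment, read from the steps between low values, differed up to 4.96-fold between libraries and was largest in LinNegSca1Pos replicate 3 and in Whole replicate 3. A listing at 0.001 in these libraries therefore says less than in LinPos, where the step varied by 1.04 to 1.25 times the smallest.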

How the data were processed

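Poly(A) RNA of 19 libraries in 5 groups was analysed, with groups and replicate numbers from the sample titles. The authors deposited FPKM per gene, with no counts, and the column names call the values FPKM. The submitters' processing notes name Cufflinks, TopHat2, Bowtie2, bcl2fastq and mm10, without versions or roles, and the gene annotation is not given here. Of 23846 rows, 325 held status words in place of some or all values and were left out, which left 23521. Another 4 columns that name none of the samples were left aside. Starts were shifted to count from 1.

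Tests used log2(FPKM + 1), where differences of low genes come out too small. The 14043 genes that reached 1 FPKM in 3 or more libraries were fitted together for the 5 groups with limma 3.58.1 in R 4.3.3 (two-sided, empirical Bayes, variance trend, 14 residual df). A call is an adjusted p (Benjamini-Hochberg over all tested genes) under 0.05, and each SE is that of the fit. On simulated data of this size the fit called 51 of 100 genes changed by 1 on the log2 scale and 89 of 100 changed by 2. Descriptions used Python 3.11.15 with pandas 2.3.3, numpy 2.4.6 and matplotlib 3.10.9.

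The 9 genes, the 16 gene lists and the alternatives were chosen with earlier results of these data known. In each comparison described, up to 4 called genes of a list with the largest difference were named, and any gene called against most of its list, with the 10 genes of largest ratio in LinPos replicate 3 and the nearest profiles. Members of lists without named genes are given as counts, and a gene among the nearest profiles is not reported here. Prss57, Cebpd and Cxcl1 belong to these rules, and Csf3r, Mmp8, Cxcl5, Car1, Vpreb3, Ly6c2 and Ptprc were named after their values were seen. Spi1, Mcemp1, Hba-a1 and Hba-a2 could not be matched to a single row. Alternatives were other pseudocounts and filters, median-of-ratios scaling, quantile normalization, the compared groups only, no variance trend, a replicate block, replicates 1 and 2 or 3 and 4 alone, and leaving out each library. Fits without all LinPos libraries, and without replicate 3 of both LinPos and LinNeg, were added after seeing the data. Same-numbered LinPos and LinNeg libraries deviated together from their group means (r across genes 0.441 to 0.704), which comes from the data and not from the labels. The block changed no count of other neutrophil genes there.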

Additional observations from a re-analysis of the deposited data

Results flagged for a closer look

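Of 36 sets of 4 libraries (9 genes in 4 groups), 9 had a library whose gap to the nearest other library passed Dixon's 95% critical value. All 9 were replicate 3. In LinPos replicate 3 these were S100a8 at 38347.9 FPKM, Lcn2 at 1326.6 FPKM and Retnlg at 1928.65 FPKM. In LinNeg replicate 3 these were S100a8 at 709.918 FPKM, S100a9 at 288.592 FPKM, Camp at 33.4666 FPKM, Ngp at 52.888 FPKM, Retnlg at 19.92 FPKM and Mpo at 0.88491 FPKM. S100a8 and Retnlg thus stood apart in both groups, and no set of LinNegSca1Neg or Whole passed. Chance gives about 1 in 20 for independent sets of genes not chosen by their values. The genes were chosen for the values of LinPos replicate 3, so the 3 values there are a description, and the 6 in LinNeg are genes of 1 library that move together, so the count of 9 is not read against that rate.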

How the results depend on the processing

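The limits are those of a table of FPKM without counts, with 3 or 4 libraries a group, in which levels under 1 FPKM are not resolved.

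No called value of the 9 genes changed direction under any alternative. With median-of-ratios scaling 4957 genes were lower in LinNeg than in Whole, 4916 in LinNegSca1Pos than in Whole, and 4231 were higher and 4848 lower in LinNegSca1Neg than in Whole. Quantile normalization gave 4445 higher and 4352 lower in the last comparison. Mpo and Elane were called under none of the alternatives. The count of the other 7 genes higher in LinNegSca1Neg than in Whole, 2, became 1 with no filter, 0 with median-of-ratios scaling and 0 with replicates 3 and 4 alone. The count lower in LinNegSca1Pos than in LinNegSca1Neg, 3, became 5 in the compared groups only, 5 with replicates 1 and 2 alone and 1 with replicates 3 and 4 alone. The count higher in LinNeg than in Whole, 0, became 1 in the compared groups only and 1 without all LinPos libraries. Other neutrophil genes higher in LinPos than in LinNeg numbered 31 with replicates 1 and 2 alone and 30 with replicates 3 and 4 alone, where fewer libraries were in the fit. The cause of the other moves was not tested.

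Uncalled log2 differences changed sign as follows. Camp in LinNegSca1Pos minus Whole was 0.16 at a pseudocount of 0.1. With median-of-ratios scaling Ngp in LinNeg minus Whole was -0.48, Ltf and Mpo in LinNegSca1Neg minus Whole -0.055 and -0.0071, and Lcn2 in LinNegSca1Pos minus Whole -0.0011. With quantile normalization Mpo in LinNegSca1Pos minus LinNegSca1Neg was 0.072, Ngp in LinNeg minus Whole -0.36, and Ltf, Mpo and Elane in LinNegSca1Neg minus Whole -0.14, -0.19 and -0.12. With replicates 1 and 2 alone Camp and Ngp in LinNeg minus Whole were -0.054 and -0.63. With replicates 3 and 4 alone Lcn2 in LinNegSca1Pos minus LinNegSca1Neg was 0.20, Mpo in LinNeg minus Whole 0.11 and Ltf in LinNegSca1Neg minus Whole -0.21. Without replicate 3 of both LinPos and LinNeg, Camp and Ngp in LinNeg minus Whole were -0.32 and -0.91. The cause was not tested.

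Leaving out 1 library at a time gave 1 to 3 of these 7 genes lower in LinNegSca1Pos than in LinNegSca1Neg, 1 to 3 higher in LinNegSca1Neg than in Whole and 0 to 1 higher in LinNeg than in Whole. It gave 43 to 47 other neutrophil genes higher and 1 to 2 lower in LinPos than in LinNeg. S100a8 in LinNegSca1Neg against Whole lost its call without Whole replicate 2 or 4 or LinNegSca1Neg replicate 1, 2 or 4. Over these fits the log2 difference in LinNeg minus Whole ran from -0.32 to 1.07 for Camp, -0.91 to 0.60 for Ngp, -0.31 to 0.051 for Mpo and -0.21 to 0.19 for Elane. In LinNegSca1Pos minus Whole it ran from -0.90 to 0.19 for Camp, -0.24 to 0.95 for Lcn2, -0.27 to 0.18 for Mpo and -0.31 to 0.032 for Elane. In LinNegSca1Neg minus Whole it ran from -0.057 to 0.82 for Ltf and -0.012 to 1.42 for Ngp, and in LinNegSca1Pos minus LinNegSca1Neg from -0.96 to 0.23 for Lcn2.

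With the replicate number as a block, Ltf was called in LinNegSca1Pos against LinNegSca1Neg (log2 difference -1.80, limma adjusted p = 0.046) and S100a9 in LinNegSca1Neg against Whole (2.51, limma adjusted p = 0.028), so that 4 and 3 of the 7 genes were called. Deviations of same-numbered libraries correlated at 0.077, -0.032 and 0.18 between LinNegSca1Pos and LinNegSca1Neg. The correlations were mostly negative against Whole. The labels do not say whether same-numbered libraries came from the same mice, and these values cannot settle it.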
